A study of Homo sapiens with 8 samples.

Results

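The AP-1 genes were described here in cells labelled as the lines MM1S and OPM1 and exposed to Zalypsis. There were 9 members: JUN, JUNB, JUND, FOS, FOSB, FOSL1, FOSL2, ATF3 and BATF. All probe sets that the platform's gene table assigns to these symbols were taken, 21 of 54675 in all, for 9 of the 19775 genes that have a probe set with a single symbol. JUN and JUND had 4 probe sets each, FOSL2 had 5, ATF3 had 3 and the other members 1. Both names, MM1S and OPM1, are those of long-established human lines from multiple myeloma, which is a plasma cell cancer. Zalypsis is a DNA-binding drug related to alkaloids of marine animals. The 4 groups were untreated MM1S, MM1S with Zalypsis at 5 nM, untreated OPM1 and OPM1 with Zalypsis at 5 nM, with 2 arrays each of the HG-U133 Plus 2.0 design. Treated cells were collected as death set in, at 15 to 20% dying cells by annexin V, and the hours of exposure and what the control cells received are not stated. Whether the 2 arrays of each group represent separate cultures is not labelled, and a p-value here may reflect technical spread alone.

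AP-1 is a transcription factor made of pairs of leucine zipper proteins. The Jun proteins can pair with themselves or with a Fos protein, while Fos proteins need a Jun partner, and the pairs bind a short palindrome known as the TPA response element. ATF3 and BATF share the zipper and also pair with Jun proteins. ATF3 is induced by many kinds of stress, and BATF acts with IRF4 or IRF8 on composite sites in lymphocytes. JUN, FOS, FOSB, JUNB and ATF3 are immediate early genes, whose transcripts come and go quickly after a stimulus and need no new protein. JUN protein is known to act on its own promoter through a variant of the element, together with ATF2.

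That variant is the reason for showing promoter windows of JUN and ATF3. The sequences are from RefSeq, assembly GRCh38.p14, read 5′ to 3′ on the strand of the gene, and the capitals mark the motif. Position 1 is the first base transcribed from the start shown. ATF3 had 2 windows, and the one shown is at the outer 5′ end of the gene. Of the 9 members, 8 had a window of 300 bases, 250 before the start and 50 from it on, and FOSL1 had none.
JUN, -150 to -1, chr1:58784048-58784197, minus strand: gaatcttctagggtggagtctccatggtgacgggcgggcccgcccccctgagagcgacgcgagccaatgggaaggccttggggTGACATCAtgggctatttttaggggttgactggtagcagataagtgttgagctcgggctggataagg
ATF3, -150 to -1, chr1:212565257-212565406, plus strand: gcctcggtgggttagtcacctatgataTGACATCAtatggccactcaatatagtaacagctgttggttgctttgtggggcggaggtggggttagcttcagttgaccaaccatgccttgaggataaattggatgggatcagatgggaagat
Both held TGACATCA, at -67 to -60 in JUN and at -123 to -116 in ATF3, and the other of the 2 ATF3 windows held none of the motifs searched. Which of the 2 ATF3 starts was in use in these cells was not tested. The letters TGACATCA, or TGATGTCA on the other strand, were in 2.61% of 35116 windows of the same length (918 windows). Among tested genes, the 196 with this motif had a median log2 change of -0.01 in MM1S and -0.11 in OPM1, beside 0.01 and -0.10 for the 9431 without it.

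JUND and FOSL2 carried other forms of the element, and these windows are shown as well.
JUND, -230 to -171, chr19:18281793-18281852, minus strand: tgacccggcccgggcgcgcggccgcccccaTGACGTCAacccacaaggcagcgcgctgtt
FOSL2, -10 to 20, chr2:28392848-28392877, plus strand: tcgtgccattgtagTGACTCAtctcgggca
The JUND window held the cyclic AMP response element TGACGTCA, a letter string that reads alike on both strands and was in 1.85% of windows. The FOSL2 window held the TPA response element TGACTCA, searched also as TGAGTCA for the other strand, found in 4.95% of windows. No motif contains the letters of another, and none of the 3 was in the windows of JUNB, FOS, FOSB or BATF. A match describes these letters only and is no measurement of binding. Whether a motif goes with the changes of the members was not tested.

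The arrays gave signals on a linear scale with a median of 23.0 to 24.8 per array, so values below about that level are dim. Arrays of a group correlated at 0.988 to 0.993 and arrays of different groups at 0.802 to 0.963 on the log2 scale. The 10 plasma cell markers summed to 36646 to 39166 on MM1S controls but 5586 to 6219 on OPM1 controls. There the 9 markers of B cells and their precursors summed to 11834 to 13707, against 252 to 319 in MM1S, and SDC1, which defines plasma cells, was at 9.71 (mean of 2 arrays). Still, 8 of the 10 plasma cell markers were over 100 on OPM1 controls. CD38 was the only 1 of them that was higher there than on MM1S controls (489 and 54.2), and the other 9 were lower. These markers put the identity of the OPM1-labelled cells in doubt, and whether they are the myeloma line of that name was not tested. OPM1 is used here as the label of these arrays. With Zalypsis these B-lineage markers summed to 4901 to 5936 in OPM1, and the plasma cell markers to 4097 to 4562 in OPM1 and 27582 to 28674 in MM1S. Sums for 5 T cell, 2 erythroid and 5 stromal markers reached at most 335, 611 and 243 on any array. The sum of 5 myeloid markers went from 50.8 to 66.2 on OPM1 controls to 124 to 177 on treated OPM1 arrays, through CD14 (5.36 and 98.6, means of 2 arrays), and was 52.0 to 66.1 in MM1S. Its part in the OPM1 results was not tested. In bulk RNA, fewer cells of a type and less RNA per cell cannot be told apart.

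Spiked poly-A controls moved with treatment in OPM1. Their geometric mean was 299.7 and 448 on the controls and 1862 and 1349 on the treated arrays, 4.33 times as high, while MM1S arrays stayed at 19.7 to 25.7. The MM1S level is about that of the array medians and so is dim. Poly-A scaled values in MM1S, and of the difference between responses, rest on these dim signals. OPM1 control 1 also had a 3' to 5' ratio of 2.26 for GAPDH and 5.80 for ACTB, against 0.963 to 1.06 and 1.78 to 2.62 elsewhere. The value under a scaling by these controls is given with the OPM1 results of JUN, JUNB, JUND, FOSB, FOSL2, ATF3 and BATF.

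JUN rose in both lines, and in OPM1 it showed the largest log2 rise of the 11865 genes tested. Its main probe set read 459 and 428 on the MM1S controls and 1435 and 1112 after Zalypsis. In OPM1 it read 56.7 and 61.8 on the controls and 1539 and 1431 after Zalypsis. The treated arrays lay above all controls in both lines, and the lines overlapped only after treatment. Group means were 443 ± 21.97 and 1274 ± 228 in MM1S (SD, n = 2), a ratio of 2.87, and 59.3 ± 3.63 and 1485 ± 76.0 in OPM1, a ratio of 25.1. On the log2(signal + 32) scale of the fit, which understates changes of dim genes, JUN rose by 1.45 ± 0.16 in MM1S (SE, limma adjusted p = 1.3e-07) and by 4.05 ± 0.16 in OPM1 (adjusted p = 3.4e-15). Leaving out any 1 of the 8 arrays kept the OPM1 value between 4.004 and 4.11. With each line scaled to its poly-A controls the rise was 2.26 in OPM1 (adjusted p = 2.2e-12), where the median of all tested genes was -1.68, and 1.23 in MM1S.

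The gene lies at chr1:58780791-58784047 in GRCh38.p14, a short locus of 3257 bases. All 4 JUN probe sets had a higher treated mean in both lines, but by unequal amounts. In OPM1 the set 201466_s_at went from 4.73 and 4.15 to 180 and 202 (log2 2.61), and 213281_at from 42.9 and 37.9 to 143 and 172 (1.39). The fourth, 201465_s_at, went from 10.3 and 13.0 to 143 and 126 (1.93). In MM1S these 3 sets rose by 0.91, 0.91 and 1.5, and each was called in both lines in the fit over 32768 probe sets. With the mean of its probe sets JUN rose by 2.50 in OPM1 and ranked 32, and when sets with the suffixes _s_at, _x_at and _a_at were left out it rose by 1.39 and ranked 316 of 10073. Its place at the head of the OPM1 changes held with the brightest probe set and not under either of these choices.

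JUNB, the Jun protein that is often described as weaker than JUN at activating transcription, rose more in MM1S than in OPM1. Its only probe set read 68.4 and 73.4 on the MM1S controls and 259 and 272 after Zalypsis. OPM1 controls read 96.7 and 108, and treated OPM1 arrays 201 and 174. Treated arrays again lay above the controls of both lines. The log2 rise was 1.53 ± 0.13 in MM1S (limma adjusted p = 2.8e-09), rank 41 from the highest change, and 0.71 ± 0.13 in OPM1 (adjusted p = 4.4e-05), rank 1495. Under the poly-A scaling the OPM1 value turned to -1.001 (adjusted p = 1.4e-04), so the direction of JUNB in OPM1 depends on the scaling, while in MM1S it stayed a rise. JUNB lies at chr19:12791486-12793315.

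JUND, the Jun gene that most cells express steadily, was bright everywhere. Its main probe set, 203752_s_at, read 2047 and 1630 on MM1S controls, 2482 and 2058 on treated MM1S arrays, 2128 and 1828 on OPM1 controls and 1690 and 1903 on treated OPM1 arrays. The groups overlapped in OPM1, and in MM1S the higher control lay just below the lower treated array. Its change was 0.30 ± 0.15 in MM1S (95% interval -0.005 to 0.609, limma adjusted p = 0.116) and -0.13 ± 0.15 in OPM1 (adjusted p = 0.446). In MM1S the call depended on the setting: it was made with quantile normalization (0.37, adjusted p = 0.013) and without MM1S control 1 (0.46, adjusted p = 0.040). The other 3 JUND probe sets were dimmer and differed from the main one in OPM1, where 214326_x_at, 203751_x_at and 229117_s_at rose by 0.50, 0.51 and 0.47 (adjusted p = 0.011, 7.6e-03 and 0.023). The set 214326_x_at went from 35.8 and 54.3 to 78.6 and 73.6. With the mean of the 4 sets JUND rose by 0.34 in OPM1 (adjusted p = 0.026), and with the poly-A scaling the main set fell by 2.21, so no direction can be given for JUND in OPM1. The gene lies at chr19:18279694-18281622.

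**Figure D1:**
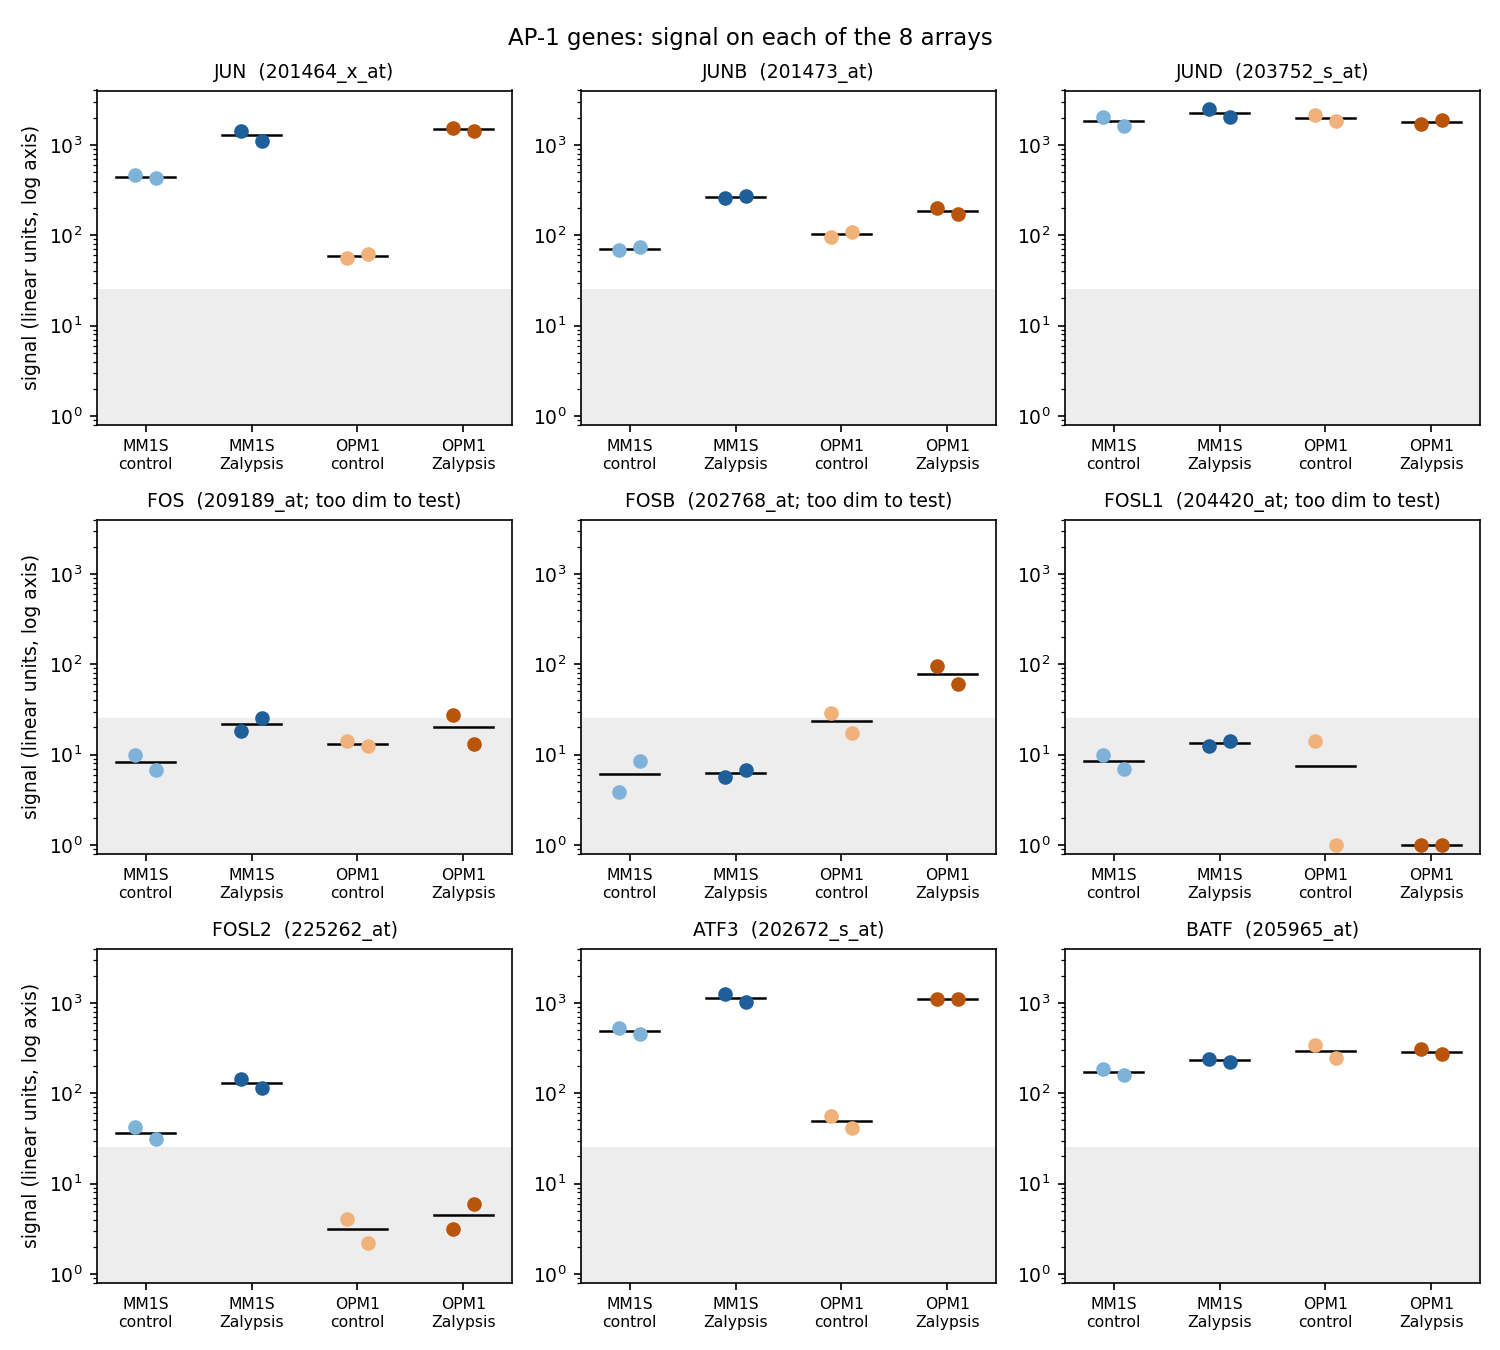
Signal of the representative probe set of each AP-1 gene on each of the 8 arrays, on a log axis, with points for arrays, bars for the mean of 2 arrays and grey for signals up to 24.8, the highest array median. JUN and ATF3 are lower on OPM1 controls than on MM1S controls and overlap after Zalypsis, FOSL2 is above the grey zone in MM1S alone, and FOS and FOSL1 stay dim.

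The Fos family was dim on these arrays, and FOSL2 was its only member that passed the filter on dim genes in the fit over genes. FOS, the founding partner of JUN, read 9.98 and 6.75 on MM1S controls and 18.3 and 25.1 after Zalypsis. In OPM1 it read 14.0 and 12.6 on controls and 27.2 and 13.1 after Zalypsis. The treated MM1S arrays lay above their controls, but almost all values were at or under the array median. In a fit with no filter, over 19775 genes, FOS differed by 0.41 in MM1S (limma adjusted p = 0.052) and 0.19 in OPM1 (adjusted p = 0.326). FOSL1, which encodes FRA1, read 10.03 and 7.02 and then 12.4 and 14.3 in MM1S, and in OPM1 it was at exactly 1 on 3 of 4 arrays and at 14.1 on control 1. Their loci are chr14:75278828-75282230 for FOS and chr11:65892049-65900545 for FOSL1.

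FOSB, a Fos protein induced by many stimuli, was dim on all MM1S arrays and brighter in OPM1. Its probe set was at 3.88 and 8.40 on MM1S controls and at 5.65 and 6.81 after Zalypsis. In OPM1 it was at 29.2 and 17.6 on the controls and at 94.8 and 60.7 after treatment. The treated OPM1 arrays lay above all others. FOSB was too dim for the test over genes, where a mean signal of 27.3 was needed, and passed the lower limit of 17.6 over probe sets through its treated OPM1 arrays. Its test is therefore taken from the fit with no filter, where it rose by 0.98 ± 0.16 in OPM1 (limma adjusted p = 1.8e-04), and in MM1S the difference was 0.01 (adjusted p = 0.991). Under the poly-A scaling the OPM1 value was -0.24 (adjusted p = 0.228), so the rise depends on the scaling. The gene lies at chr19:45467996-45475179.

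FOSL2, which encodes FRA2, rose in MM1S and was dim in OPM1. The main probe set read 42.5 and 30.8 on MM1S controls and 143 and 116 after Zalypsis, a ratio of means of 3.52. In OPM1 it read 4.11 and 2.21 on controls and 3.18 and 5.90 after Zalypsis, all below the array median. FOSL2 passed the filter through its treated MM1S arrays, so its tests too are taken from the fit with no filter. There the log2 rise in MM1S was 1.23 ± 0.13 (limma adjusted p = 2.0e-05), rank 93 of 19775, and the OPM1 difference was 0.06 ± 0.13 (adjusted p = 0.802), or -0.18 under the poly-A scaling. Of its other probe sets, 218880_at and 228188_at were higher by 1.00 and 1.15 in treated MM1S. Both passed the filter over probe sets through those treated arrays, so these values describe and add no support. The set 205409_at, at 24.6 and 20.8 and then 33.0 and 42.1, did not pass (0.34, adjusted p = 0.064), and 218881_s_at was too dim to test. FOSL2 lies at chr2:28392858-28417317.

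ATF3 followed JUN closely. Its main probe set read 526 and 451 on MM1S controls and 1264 and 1011 after Zalypsis. In OPM1 it read 56.7 and 41.2 on controls and 1098 and 1097 after Zalypsis. As with JUN, treated arrays lay above all controls and the lines overlapped only after treatment. Means went from 489 ± 53.1 to 1137 ± 179 in MM1S (SD, n = 2), a ratio of 2.33, and from 49.0 ± 10.9 to 1098 ± 0.799 in OPM1, a ratio of 22.4. The log2 rise was 1.16 ± 0.16 in MM1S (limma adjusted p = 4.4e-06) and 3.81 ± 0.16 in OPM1 (adjusted p = 1.1e-14), the second in order after JUN. It stayed between 3.67 and 3.95 without any 1 array, and was 2.06 in OPM1 under the poly-A scaling (adjusted p = 8.9e-11).

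The probe sets of ATF3, a gene at chr1:212565407-212620777, rose by unequal amounts. In OPM1, 1554980_a_at went from 36.01 and 43.8 to 136 and 210 (log2 1.49), and in MM1S from 106 and 82.5 to 155 and 150 (0.56, limma adjusted p = 0.023). The third, 1554420_at, read 26.3 and 60.1 and then 66.5 and 93.2 in OPM1 (0.60, adjusted p = 0.043), with a gap between its controls wider than that to the lower treated array. In MM1S it read 55.4 and 25.3 and then 54.7 and 34.0, an overlap of both groups (0.10, adjusted p = 0.809). With the mean of the sets ATF3 rose by 1.97 in OPM1 and ranked 88. Only 1554420_at has no _s_at or _a_at suffix, so with sets of that kind alone the MM1S call of ATF3 was lost (0.10, adjusted p = 0.764).

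BATF did not pass the test in either line. It read 184 and 159 on MM1S controls and 240 and 223 after Zalypsis, without overlap, and 340 and 248 on OPM1 controls and 307 and 270 after Zalypsis, with overlap. The MM1S difference was 0.37 ± 0.15 (95% interval 0.055 to 0.688, limma adjusted p = 0.060). It was called with quantile normalization (0.48, adjusted p = 0.019), in a fit of the MM1S arrays alone (adjusted p = 0.029), and without either OPM1 control (adjusted p = 0.036 and 0.038). The OPM1 difference was -0.01 ± 0.15 (adjusted p = 0.944) and turned to 0.37 after quantile normalization (adjusted p = 0.038). Under the poly-A scaling it was -1.90, so BATF too has no settled direction in OPM1. BATF lies at chr14:75522469-75546992.

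Of the 6 members tested in MM1S, JUN, JUNB, FOSL2 and ATF3 rose, 0 fell and 2 did not pass, with a median log2 difference of 1.197. Over all 11865 genes, 16.4% rose and 21.1% fell, with a median of 0.02. In OPM1, JUN, JUNB and ATF3 rose, 0 fell and 3 did not pass, with a median of 0.38, beside 25.4% of all genes that rose, 38.5% that fell and a median of -0.07. At the level of probe sets, 18 of 21 were bright enough to test, of which 10 rose in MM1S and 12 in OPM1 and 0 fell in either. The shares over all probe sets were 12.5% and 21.8%. A member that passed the filter only through its treated arrays had to be higher there, and the members were chosen with earlier results known, so these counts, FOSL2 and FOSB included, describe and support nothing further. After quantile normalization higher genes made up 54.5% of all calls in MM1S and 54.3% in OPM1, against 43.8% and 39.7% as deposited, and the median of all genes moved to 0.07 and 0.10.

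**Figure D2:**
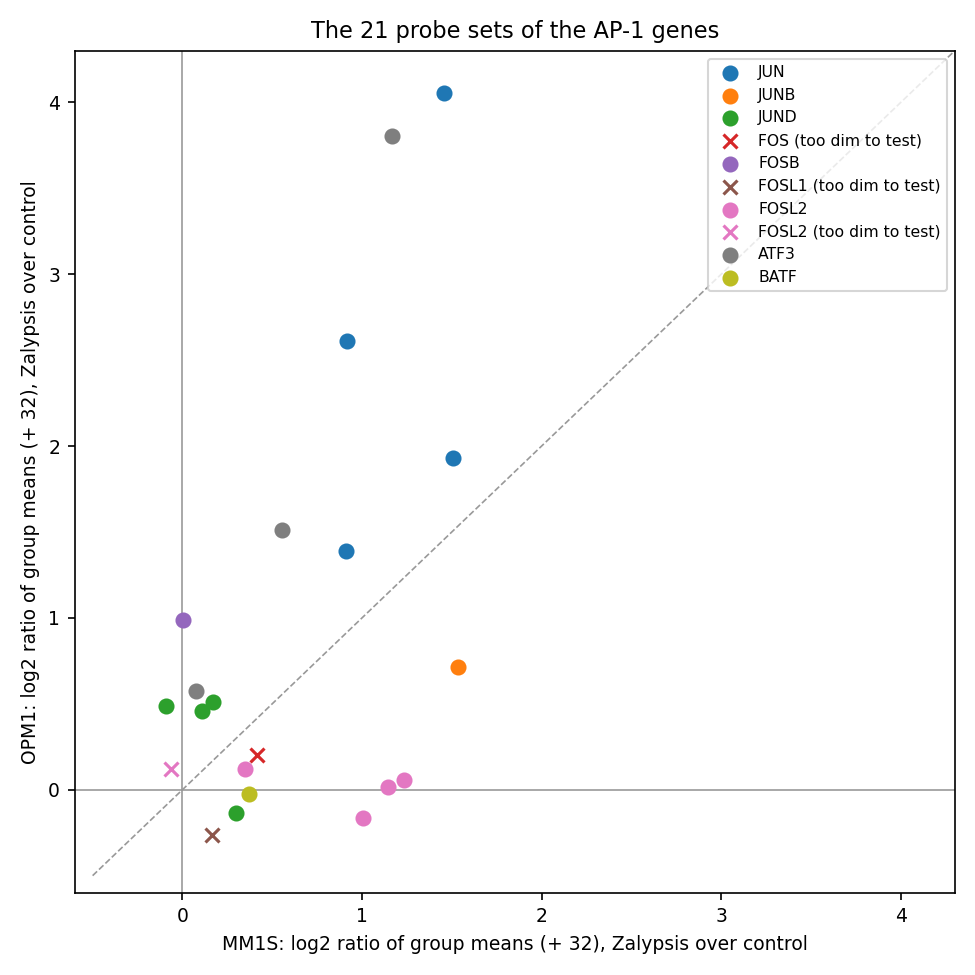
Each of the 21 probe sets by its log2 ratio of group means in MM1S (x axis) and OPM1 (y axis), with 32 added to the signals, crosses for sets too dim to test and a dashed line of equal change. All JUN and ATF3 sets lie above the line, the 3 brighter FOSL2 sets and JUNB lie below it, and probe sets of the same gene spread widely along the OPM1 axis.

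Among the members, the untreated lines differed most in JUN and ATF3 by the main probe sets. Untreated OPM1 was lower than untreated MM1S for JUN, with a log2 difference of -2.38 ± 0.16 (limma adjusted p = 1.1e-11). The other JUN sets differed less, by -1.64 for 201466_s_at, -1.23 for 213281_at and -0.76 for 201465_s_at. For ATF3 the difference was -2.69 ± 0.16 (adjusted p = 2.0e-12), but -0.81 for 1554980_a_at (adjusted p = 1.2e-03) and 0.05 for 1554420_at (adjusted p = 0.871). FOSL2 was lower in OPM1 as well (-0.96, adjusted p = 5.8e-05 with no filter), while BATF was higher (0.67 ± 0.15, adjusted p = 6.4e-04). JUNB was also higher (0.38 ± 0.13, adjusted p = 0.013), a call lost without MM1S control 1 (adjusted p = 0.071) or OPM1 control 2 (adjusted p = 0.080). The JUND difference was 0.11 (adjusted p = 0.535). Thus 2 members were higher and 3 lower, among all genes 28.6% higher and 35.2% lower.

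The responses themselves were compared by the interaction term. JUN rose by 2.61 ± 0.22 more in OPM1 than in MM1S (limma adjusted p = 5.8e-09), and ATF3 by 2.65 ± 0.23 more (adjusted p = 6.8e-09). Under the poly-A scaling these differences were 1.03 (adjusted p = 0.025) and 1.11 (adjusted p = 0.014) for the main probe sets. JUN 201466_s_at was then at 0.84 (adjusted p = 0.019), but 213281_at at -0.83 (adjusted p = 0.036) and 201465_s_at at -0.56 (adjusted p = 0.106). ATF3 1554420_at was at -0.67 (adjusted p = 0.045) and 1554980_a_at at -0.38 (adjusted p = 0.314). Without _s_at, _x_at and _a_at probe sets the differences of JUN and ATF3 as deposited were 0.47 (adjusted p = 0.039) and 0.50 (adjusted p = 0.177). JUNB and FOSL2 went the other way, with differences of -0.82 ± 0.18 (adjusted p = 7.4e-04) and -1.18 ± 0.19 (adjusted p = 4.3e-04 with no filter), where FOSL2 was dim throughout OPM1. The JUNB difference did not pass after quantile normalization (-0.37, adjusted p = 0.075). JUND (-0.44, adjusted p = 0.093) and BATF (-0.39, adjusted p = 0.153) did not pass either. Among all genes, 15.3% responded more positively in OPM1 and 31.2% more negatively. In the fit with no filter FOSB differed by 0.97 (adjusted p = 5.2e-03), and by -0.22 under the poly-A scaling (adjusted p = 0.458). Among JUN probe sets the difference was 1.695 for 201466_s_at (adjusted p = 7.9e-06), 0.47 for 213281_at (adjusted p = 0.065) and 0.43 for 201465_s_at (adjusted p = 0.088).

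The treated lines were compared after the values had been seen. For JUN the order of the 4 groups was OPM1 control, MM1S control, and then both treated groups, which differed by 0.23 ± 0.16 (95% interval -0.097 to 0.550, limma adjusted p = 0.202). For ATF3 the same order held, and the treated groups differed by -0.04 ± 0.16 (interval -0.373 to 0.291, adjusted p = 0.831). Neither p shows that the treated lines are alike, and differences within these intervals remain possible. By probe set the picture was less even, since JUN set 213281_at was lower in treated OPM1 by 0.76 (difference -0.76, adjusted p = 2.3e-04), and after quantile normalization JUN was higher there (0.46, adjusted p = 1.8e-03). JUNB (-0.44, adjusted p = 4.4e-03) and FOSL2 (-2.14, adjusted p = 2.6e-08 with no filter) were lower in treated OPM1. The JUNB difference did not pass without OPM1 Zalypsis 2 (adjusted p = 0.057) and was 0.05 after quantile normalization. JUND (-0.33, adjusted p = 0.053) and BATF (0.28, adjusted p = 0.107) did not pass. In all, 0 members were higher and 2 lower, beside 25% and 44.2% of all genes. For FOSB the 4 groups fell in the order MM1S control and treated, which did not differ beyond their spread, then OPM1 control and treated OPM1 (1.504 above treated MM1S in the fit with no filter, adjusted p = 3.4e-06).

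**Figure D3:**
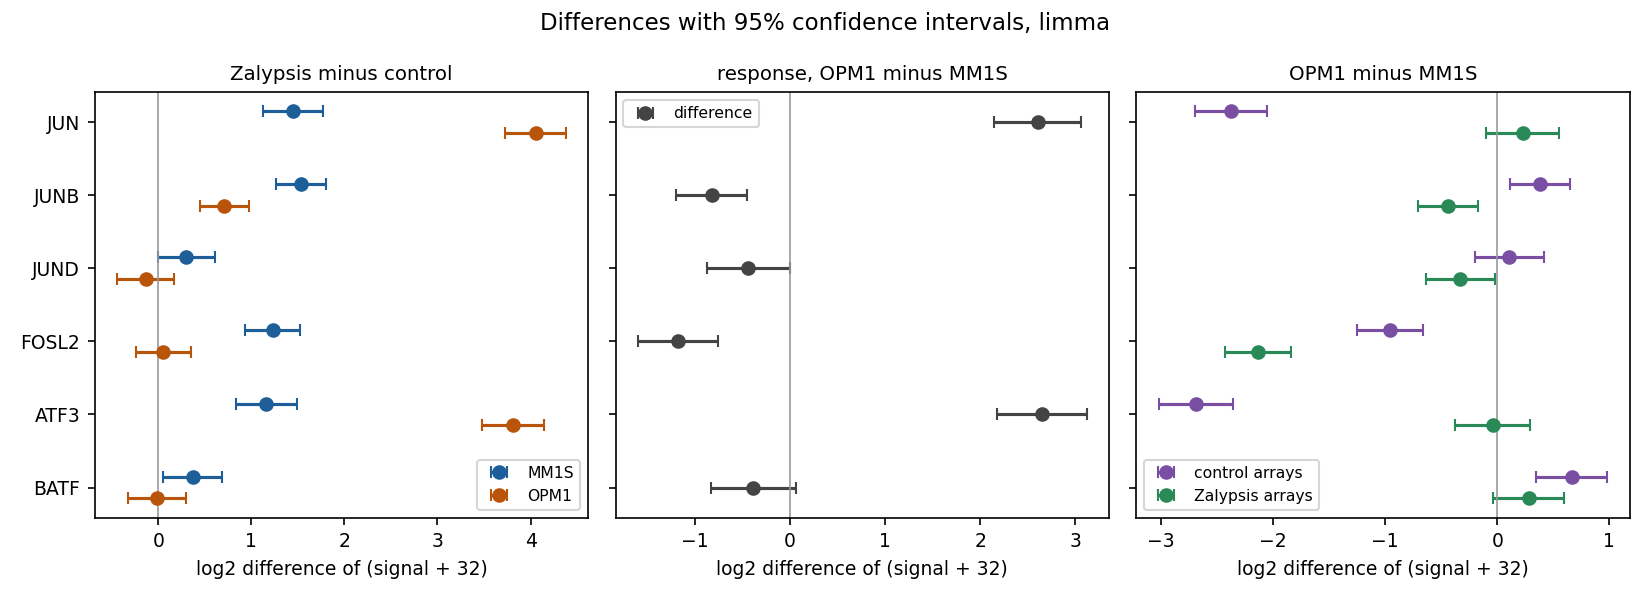
Log2 differences of (signal + 32) for the 6 tested AP-1 genes with 95% confidence intervals from limma, for Zalypsis minus control in each line (left), for the difference between the responses (middle) and for OPM1 minus MM1S on control and on Zalypsis arrays (right). JUN and ATF3 differ between lines by -2.38 and -2.69 on controls, and by 0.23 and -0.04 after Zalypsis.

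The length of a gene went with its change in both lines, so the members were also set beside genes of like span. Tested genes under 5 kb had median log2 changes of 0.16 in MM1S and 0.25 in OPM1, those of 20 to 100 kb had -0.02 and -0.26, and those over 100 kb had -0.69 and -1.07. JUN, at 3257 bases, was exceeded by 18 of 1343 genes under 5 kb in MM1S and by 0 in OPM1. JUNB, at 1830 bases, was exceeded by 13 and 360, and JUND, at 1929 bases, by 435 and 1068. ATF3 spans 55371 bases, and of the 5152 genes of 20 to 100 kb 35 rose more in MM1S and 0 in OPM1. FOSL2 spans 24460 bases and was exceeded by 23 in MM1S and 1654 in OPM1, while for BATF, at 24524 bases, these numbers were 667 and 1896. All tested members stood above the median of their class in MM1S, JUND and BATF included, which did not pass the test there.

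**Figure D4:**
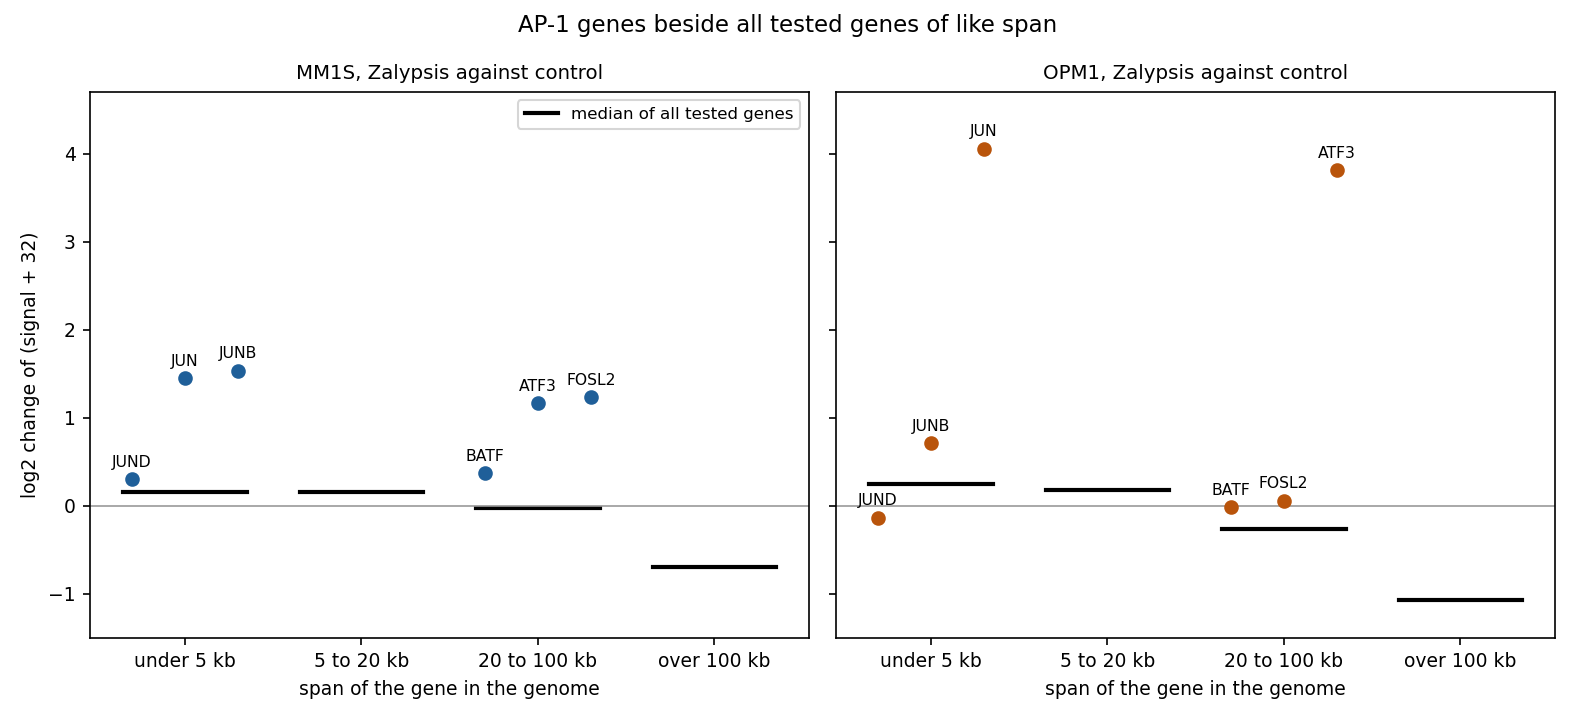
Log2 change of the 6 tested AP-1 genes (points, labelled) in each line, placed in the class of their genomic span, with the median of all tested genes in each class as a bar. JUN and ATF3 in OPM1 lie at 4.05 and 3.81 against class medians of 0.25 and -0.26.

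The genes most like JUN and ATF3 over the 8 arrays were named by the smallest root mean square difference of centred log2 values. JUN and ATF3 were each other's nearest gene, at 0.219, where the median over all tested genes was 1.69 for JUN and 1.63 for ATF3. After ATF3, the nearest to JUN were PEX39 (0.450), SCAND1 (0.507) and RFPL3S (0.522), an annotated antisense RNA. After JUN, the nearest to ATF3 were ARRDC3 (0.343), an alpha-arrestin, SCAND1 (0.433) and PEX39 (0.495). All of these rose in OPM1 by 2.76 or more, with smaller values in MM1S (0.77 to 1.24). The other AP-1 genes were far down this order, JUNB at 855 for JUN and 1136 for ATF3, FOSL2 at 1885 and 1381, and JUND and BATF at 4744 or beyond. The arrays share 4 groups, so this likeness mainly describes group means.

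The zipper proteins that pair with or compete with AP-1 went both ways. Of 15 tested, 2 rose and 7 fell in MM1S and 4 rose and 5 fell in OPM1, with medians of -0.36 and -0.04. Over all genes 16.4% rose and 21.1% fell in MM1S, and 25.4% and 38.5% in OPM1, so the partners' share lower in OPM1 was near that of all genes. MAFG, a small Maf protein, rose by 0.77 in MM1S and 1.80 in OPM1. ATF2, the partner of JUN on its own promoter, fell from 688 to 411 in MM1S (log2 -0.70) and from 580 to 69.0 in OPM1 (-2.56). JDP2, a repressor that pairs with Jun, fell from 97.9 to 22.9 and from 304 to 65.9 (-1.23 and -1.77). BACH2, a B cell repressor that is also among the B-lineage markers above, fell from 924 to 7.78 in OPM1 (-4.59) and from 30.1 to 3.37 in MM1S (-0.81).

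Among the kinases that lead to AP-1 and its regulators, more genes fell than rose in both lines. Of 18 tested genes of the MAP kinase pathway, 2 rose and 8 fell in MM1S and 2 rose and 12 fell in OPM1, with medians of -0.33 and -1.47. MAP3K5, the stress kinase ASK1, changed by -2.31 in MM1S and -2.42 in OPM1, and MAP3K20 (ZAK) by -1.002 and -2.53. MAP3K4 changed by -1.10 and -1.95, and RPS6KA3, the kinase RSK2, by -0.66 and -2.79. Of 20 regulators, 1 rose and 10 fell in MM1S and 3 rose and 12 fell in OPM1, with medians of -0.33 and -1.03. COP1, a ubiquitin ligase that marks JUN for degradation, fell from 371 to 47.3 in MM1S (-2.34) and from 902 to 17.3 in OPM1 (-4.24), and TRIB1, an adaptor of COP1, changed by -0.56 and -2.58. MEF2A and MEF2C, which bind the JUN promoter, changed by -1.08 and -1.91 in MM1S and by -2.70 and -2.94 in OPM1. Beside these counts stand the 21.1% of all genes that fell in MM1S and the 38.5% that fell in OPM1. Of genes over 100 kb, 63.1% fell in MM1S and 65% in OPM1. The genes of the AP-1 lists were not set beside genes of like span. After quantile normalization 2 kinases rose and 7 fell in MM1S and 5 rose and 11 fell in OPM1. For the regulators, 2 rose and 10 fell in MM1S and 6 rose and 12 fell in OPM1, and for the partners 3 rose and 7 fell and 5 rose and 3 fell. Over all 11865 genes 2797 rose and 2336 fell in MM1S after this normalization, and 4611 rose and 3874 fell in OPM1.

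Genes described as AP-1 targets did not move one way. Of 24, 15 were bright enough to test, of which 7 rose and 2 fell in MM1S and 4 rose and 3 fell in OPM1, with medians of 0.27 and 0.13. All genes rose in 16.4% and 25.4% of cases and fell in 21.1% and 38.5%, so the share of targets that rose in OPM1 was about that of all genes. DUSP1, a phosphatase of MAP kinases, rose from 153 to 460 in MM1S (1.41) and from 80.6 to 188 in OPM1 (0.97). GADD45A, a growth arrest gene that p53 also controls, rose from 682 to 1745 (1.31) and from 711 to 1644 (1.17). ETS1 changed by -0.92 and -2.74, and EZR changed in OPM1 by -2.12 and did not pass in MM1S (-0.25, limma adjusted p = 0.312). With the poly-A scaling 0 genes of the 4 lists rose in OPM1, and 12 partners, 17 kinases, 19 regulators and 12 targets fell. Over all 11865 tested genes, 68 rose and 10957 fell under it, so these counts show nothing particular to the lists. The same scaling left the main probe sets of JUN and ATF3 higher in OPM1, but not all of their sets. JUN 201466_s_at and 201465_s_at stayed higher (1.58 and 0.78), while 213281_at was at -0.11 (limma adjusted p = 0.693). ATF3 1554980_a_at was at 0.002 (adjusted p = 0.993) and 1554420_at at -0.70 (adjusted p = 2.3e-03).

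**Figure D5:**
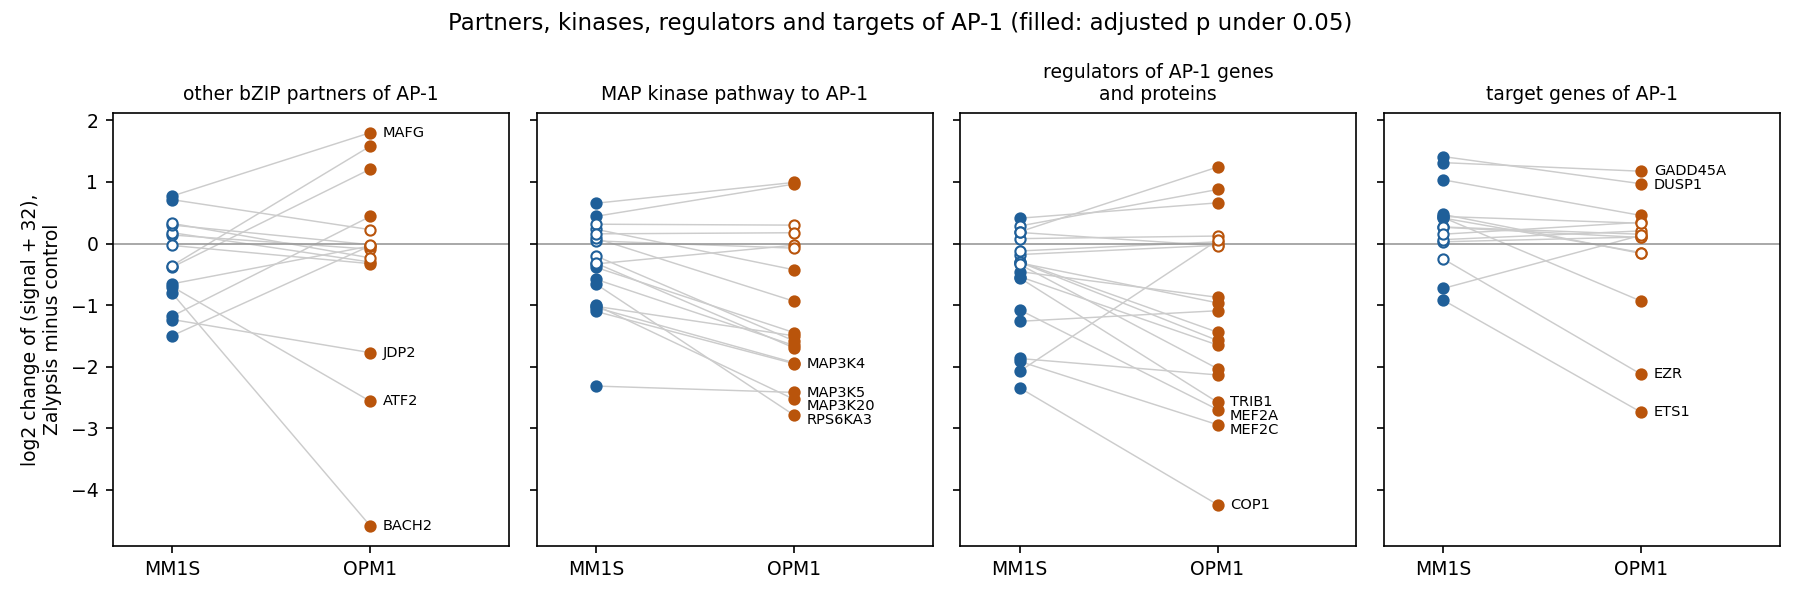
Log2 change of (signal + 32) with Zalypsis in MM1S and OPM1 for the tested genes of 4 lists, joined by lines, with filled points for adjusted p under 0.05 and labels for the 4 called genes of each list with the largest changes. COP1 (-4.24) and BACH2 (-4.59) fall furthest in OPM1, and of the AP-1 targets DUSP1 and GADD45A lie highest in both lines.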

How the data were processed

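The authors used the dChip software on the scans, per the series' design text. What they deposited are intensity values, linear and normalized in a way that is not stated, as are the dChip version and probe model. Values were kept as deposited and turned into log2(value + 32). Of 54675 probe sets, 62 are controls, and 41091 carry 1 gene symbol. The probe set with the highest mean log2 value stood for its gene. Dim genes, the lowest 40% by that mean (signal under 27.3), were dropped, so that 11865 were tested. The tests used limma 3.58.1 (R 4.3.3; lmFit, contrasts.fit, then eBayes with its trend option) on 4 groups of 2 arrays, with residual and prior degrees of freedom of 4 and 17.0. Benjamini-Hochberg adjustment ran over all genes of a contrast, and a gene was called, and is said to have risen or fallen, at an adjusted p under 0.05. The same fit was run over 32768 of 54613 probe sets. A ± after a log2 value is a standard error, and after a signal an SD of 2 arrays. Precision is limited by the number of arrays.

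The members and the gene lists were chosen with earlier results of these data known. All 9 members and their probe sets are named whatever their values, with up to 4 called genes of each list by the largest change in either line and the 4 genes most like JUN and like ATF3. Listed genes with no probe set of 1 symbol in the tables were not used here. The steps were tested on simulated data. Alternatives were other pseudocounts, filters, scalings, probe set rules and fits, and leaving out each array.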

Additional observations from a re-analysis of the deposited data

Results flagged for a closer look

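The response to Zalypsis differed between the lines for 4 AP-1 genes by the interaction term of the limma fit (OPM1 minus MM1S, log2). JUN differed by 2.61 (adjusted p = 5.8e-09) and ATF3 by 2.65 (adjusted p = 6.8e-09), with larger rises in OPM1. FOSL2 differed by -1.18 (adjusted p = 5.4e-05, and 4.3e-04 with no filter on dim genes) and JUNB by -0.82 (adjusted p = 7.4e-04), with larger rises in MM1S. FOSL2 passed the filter through its treated MM1S arrays and was below the array median throughout OPM1. These differences rest on the representative probe sets, and with no _s_at, _x_at or _a_at set the values were 0.47 for JUN (adjusted p = 0.039) and 0.50 for ATF3 (adjusted p = 0.177). Under the poly-A scaling they were 1.03 and 1.11 for the representative sets. Among the other sets, JUN 201466_s_at was then at 0.84, 213281_at at -0.83 and 201465_s_at at -0.56. ATF3 1554420_at was at -0.67 and 1554980_a_at at -0.38. Outside the main measurement, the geometric mean of the poly-A control probe sets on treated OPM1 arrays was 4.33 times that on OPM1 controls. Its part in the OPM1 values was not tested beyond the scaling by these controls.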

How the results depend on the processing

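In fits over genes, JUN and JUNB in MM1S and JUN and ATF3 in OPM1 stayed called as higher under every alternative run. FOSL2 in MM1S stayed called too, but it passed the filter through its treated MM1S arrays, so its calls in filtered fits add no support. With no filter it was at 1.23 in MM1S (limma adjusted p = 2.0e-05). Single probe sets of JUN and ATF3 did not all stay higher in OPM1 under the poly-A scaling. In OPM1 the poly-A scaling called 5 of the 6 tested members, with JUNB at -1.001 and FOSL2 at -0.18, beside 11025 of all 11865 genes. It called 2174 genes in MM1S and 10509 for the difference. It was not applied between lines, which were scaled separately. The rule of over 2-fold between group means, with no test, gave 1622 genes in MM1S, 4490 in OPM1, 3548 for the difference, 3892 between untreated and 4824 between treated lines, and 3 and 1 members in the latter comparisons. With the mean of the probe sets JUND turned to 0.34 in OPM1, 0.21 for the difference and -0.25 between untreated lines, and between treated lines JUN turned to -0.20 and ATF3 to 0.21. Without _s_at, _x_at and _a_at sets ATF3 was at 0.051 between untreated lines, and between treated lines JUN was at -0.76, ATF3 at 0.55 and 5 members were called, as against 4 without a filter on dim genes. Quantile normalization turned BATF to 0.37 in OPM1, and between treated lines JUNB to 0.053 and ATF3 to 0.23, while higher genes made up 47.6% of calls for the difference (33.0% as deposited), 51.4% between untreated (44.8%) and 51.5% between treated lines (36.2%). The cause of these changes was not tested. Leaving out 1 array at a time gave BATF in OPM1 -0.22 to 0.19, JUND between untreated lines -0.053 to 0.27, ATF3 between treated lines -0.20 to 0.12, and 1 to 3 called members and 5 to 10 called member probe sets between treated lines. The replicate numbers could be paired within a line only, with correlations of deviations of 0.21 in both lines over 2 pairs, and no label gives them a meaning. With a replicate block 5461 genes were called in MM1S, 8101 in OPM1 and 6344 for the difference, and JUND (adjusted p = 0.027) and BATF (adjusted p = 0.013) were then called in MM1S. The block gives no value between lines, nor does a fit of only the arrays compared for the difference. FOS, FOSL1 and, over genes, FOSB were too dim to test in the main fits. All were tested with no filter, and FOSB also passed the filter over genes without _s_at, _x_at and _a_at sets.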
